A study of Mus musculus with 24 samples.

Results

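The 43 genes described here encode the machinery that copies DNA in S phase and the factors that prepare and watch over it. They were chosen by name as rows of the deposited table of gene counts, whose Ensembl identifiers were matched to symbols, and 43 of 43 were found among 56941 gene identifiers. All of them also passed the filter on low counts that left 14757 genes for testing. RNA came from macrophages grown from mouse bone marrow (BMDM) and of 3 genotypes, which are wild type (WT), HDAC9 knockout (KO) and HDAC9 deltaCIS (dCIS), a deletion in cis-regulatory DNA. Hdac9 encodes a class IIa histone deacetylase. Each genotype was profiled untreated and after 6 hours of 100 ng/ml lipopolysaccharide (LPS), a bacterial cell wall component sensed through the receptor TLR4, with 4 libraries in each of the 6 groups.

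All groups shared the same history. Marrow cells were grown in medium conditioned by L929 cells, which supplies the macrophage growth factor M-CSF, were replated on day 7, spent 24 hours without that supplement, and were then kept in serum-free medium with or without LPS. The strain, the age of the mice, how many mice gave the marrow, the extent of the knockout and the position of the deleted element do not appear in the sources used. No label ties the libraries of a group to separate mice or cultures, so a p-value here measures spread between libraries that may be technical.

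DNA replication starts at origins that are licensed in G1, when the origin recognition complex, Cdc6 and Cdt1 load the ring-shaped Mcm helicase. In S phase Cdc45 and the GINS complex turn that ring into an active helicase, polymerases copy both strands around the sliding clamp Pcna, and ribonucleotide reductase supplies the building blocks. E2F transcription factors, held back by the retinoblastoma proteins until late G1, drive most of these genes. Macrophages grown from marrow divide in response to M-CSF, and stimulation with LPS is known to arrest that division.

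Total counts ranged from 14636058 to 19181707 per library. At least 20458 genes had a count in 22 libraries, against 17628 and 15997 in dCIS LPS libraries 3 and 4. The level of Hdac9, the targeted gene, matched the KO label. It was not lowered in dCIS, so it does not check the dCIS label. Hdac9 lay between 0.841 and 1.31 CPM, a level set against library size, in untreated KO libraries, against 9.15 to 12.4 CPM in WT and 13.0 to 17.9 CPM in dCIS, and between 0.0898 and 0.464 CPM in KO after LPS, against 10.4 to 16.5 and 9.89 to 21.2 CPM. Library sizes were scaled by the trimmed mean of M-values (TMM), and a level in CPM is not corrected for transcript length.

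The sample type also matched its label. The 8 macrophage markers, among them Adgre1, Csf1r and Cd68, summed to 18909 to 21820.0 CPM in untreated WT libraries, 19805 to 21589.7 CPM in KO and 15529 to 19879 CPM in dCIS, and to between 18912 and 26704 CPM over the LPS libraries. All 7 lymphocyte markers and all 7 erythroid markers stayed under 1 CPM in every library. Of the 10 markers of dividing blood progenitors, Flt3, Gata2, Mpo, Elane, Prtn3 and Ctsg stayed under 1 CPM in every library, and the 10 summed to 2.41 to 3.07 CPM in untreated WT libraries, 3.00 to 4.82 CPM in KO and 2.48 to 5.01 CPM in dCIS. In bulk RNA, fewer cells in S phase and less RNA of these genes per cell cannot be told apart.

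Promoter sequences are shown first because E2F sites are what these genes are known to share. RefSeq promoters of the GRCm38.p6 build, from 250 bases before to 50 bases after the transcription start, were available for 36 members, without Mcm4, Gins1, Gins2, Rfc2, Prim2, Pole and Exo1. A gene counted as a match if any of its promoters held the letters. The letters TTTCGCGC, TTTGGCGC, TTTCCCGC or TTTGCCGC, on either strand, occurred in 17 of 36 members (47.2%). This compares with 2.6% of 27025 genes with a promoter and 4.78% of the 9535 among them tested here. The 17 members are Orc1, Cdc6, Cdt1, Mcm3, Mcm5, Mcm6, Mcm7, Gins3, Rfc3, Pola1, Pold1, Lig1, Uhrf1, Clspn, Brca2, E2f2 and Cdca7. Of these, Lig1, Mcm7, E2f2 and Uhrf1 each also have a promoter without these letters. The letters CCAAT, known as the binding motif of the factor NF-Y, occurred in 63.9% of the members with a promoter, against 43% of such tested genes. TTTGAA, the core of the cell cycle homology region of mitotic genes, occurred in 13.9% against 14.6%. A match describes letters in a window and does not show binding.

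The 6 promoters below are the 250 bases upstream of the start, 5′ to 3′ on the strand of the gene, with E2F letters of either strand in capitals. Mcm5, Cdc6 and Cdca7 are printed as members that fell after LPS, Mcm6 as one with a smaller response and several matches, Rfc3 as one that rose, and Pcna as one with none of these letters in the window. They were picked with their responses known.
Mcm5 (chr8:75109259-75109508, plus strand): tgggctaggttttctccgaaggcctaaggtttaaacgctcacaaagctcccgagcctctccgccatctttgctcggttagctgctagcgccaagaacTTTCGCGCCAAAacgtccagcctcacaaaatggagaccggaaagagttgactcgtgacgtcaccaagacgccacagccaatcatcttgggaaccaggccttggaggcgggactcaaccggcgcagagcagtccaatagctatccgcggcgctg
Cdc6 (chr11:98907901-98908150, plus strand): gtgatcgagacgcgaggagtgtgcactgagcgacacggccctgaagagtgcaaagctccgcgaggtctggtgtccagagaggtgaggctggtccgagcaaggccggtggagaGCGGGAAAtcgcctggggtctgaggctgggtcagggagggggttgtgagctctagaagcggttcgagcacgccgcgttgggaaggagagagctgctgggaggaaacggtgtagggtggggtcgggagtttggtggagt
Cdca7 (chr2:72475969-72476218, plus strand): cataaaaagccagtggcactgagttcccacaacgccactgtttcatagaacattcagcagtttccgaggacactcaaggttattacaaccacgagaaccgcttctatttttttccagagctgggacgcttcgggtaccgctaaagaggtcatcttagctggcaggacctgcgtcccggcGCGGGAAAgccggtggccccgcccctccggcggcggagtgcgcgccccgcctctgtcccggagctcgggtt
Mcm6 (chr1:128359706-128359955, minus strand): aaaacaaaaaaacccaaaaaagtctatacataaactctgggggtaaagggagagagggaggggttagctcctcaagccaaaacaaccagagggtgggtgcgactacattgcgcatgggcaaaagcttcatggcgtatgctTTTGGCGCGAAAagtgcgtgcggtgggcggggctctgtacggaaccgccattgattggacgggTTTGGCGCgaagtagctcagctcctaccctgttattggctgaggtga
Rfc3 (chr5:151651209-151651458, minus strand): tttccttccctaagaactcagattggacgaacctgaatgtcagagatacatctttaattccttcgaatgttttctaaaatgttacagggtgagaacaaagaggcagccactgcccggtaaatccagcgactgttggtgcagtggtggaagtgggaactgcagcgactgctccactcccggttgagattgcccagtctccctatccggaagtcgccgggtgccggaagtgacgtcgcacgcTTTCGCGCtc
Pcna (chr2:132253181-132253430, minus strand): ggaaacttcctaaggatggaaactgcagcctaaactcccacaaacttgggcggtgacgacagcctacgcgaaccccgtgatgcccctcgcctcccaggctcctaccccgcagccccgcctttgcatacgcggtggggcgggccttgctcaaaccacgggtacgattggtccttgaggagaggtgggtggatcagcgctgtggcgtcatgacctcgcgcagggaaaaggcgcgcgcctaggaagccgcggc

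In Mcm5 the matches begin 153 and 149 bases before the start and overlap, in Cdc6 138 bases, in Cdca7 71 bases, in Mcm6 110, 106 and 47 bases, and in Rfc3 10 bases before it. Among these picked members the E2F letters occurred with a large fall, with the smaller response of Mcm6 and with the rise of Rfc3. Whether any factor bound them was not measured.

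LPS lowered most of the replication machinery in each genotype. Log2 fold changes are given ± their standard error (SE). In WT 37 of 43 members fell and 2, Pcna and Rfc3, rose, by edgeR's quasi-likelihood test at an adjusted p under 0.05. Of all 14757 genes tested, 61.4% were called in WT, 31.0% of them lower and 30.4% higher, as shares of all tested. The members' median log2 fold change was -2.05, against 0.00 over all tested genes, with values from -6.23 (Cdca7, from 12 counts after LPS) to 1.26 (Rfc3). For 34 members each LPS library lay below each untreated one, against 31.2% of all tested genes.

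KO and dCIS macrophages gave counts close to these. In KO 35 members fell and 3 rose (Pcna, Rfc3 and Tyms), where 61.6% of all genes were called, 30.7% lower and 30.9% higher. In dCIS 38 fell and 1, Rfc3, rose, where 64.7% of all genes were called, 33.3% lower and 31.3% higher. Without dCIS LPS libraries 3 and 4 the counts in dCIS were 35 lower and 1 higher. The members' medians were -2.07 in KO and -2.19 in dCIS. Together 35 members fell in all 3 genotypes, Rfc3 rose in all 3, and Cdt1, Gins2, Mcm6, Mcm10, Pcna, Pola2 and Tyms did neither. The share of all tested genes that did so was not counted. It can be at most 30.7% for lower, the share in KO, and at most 30.4% for higher, the share in WT.

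**Figure D1:**
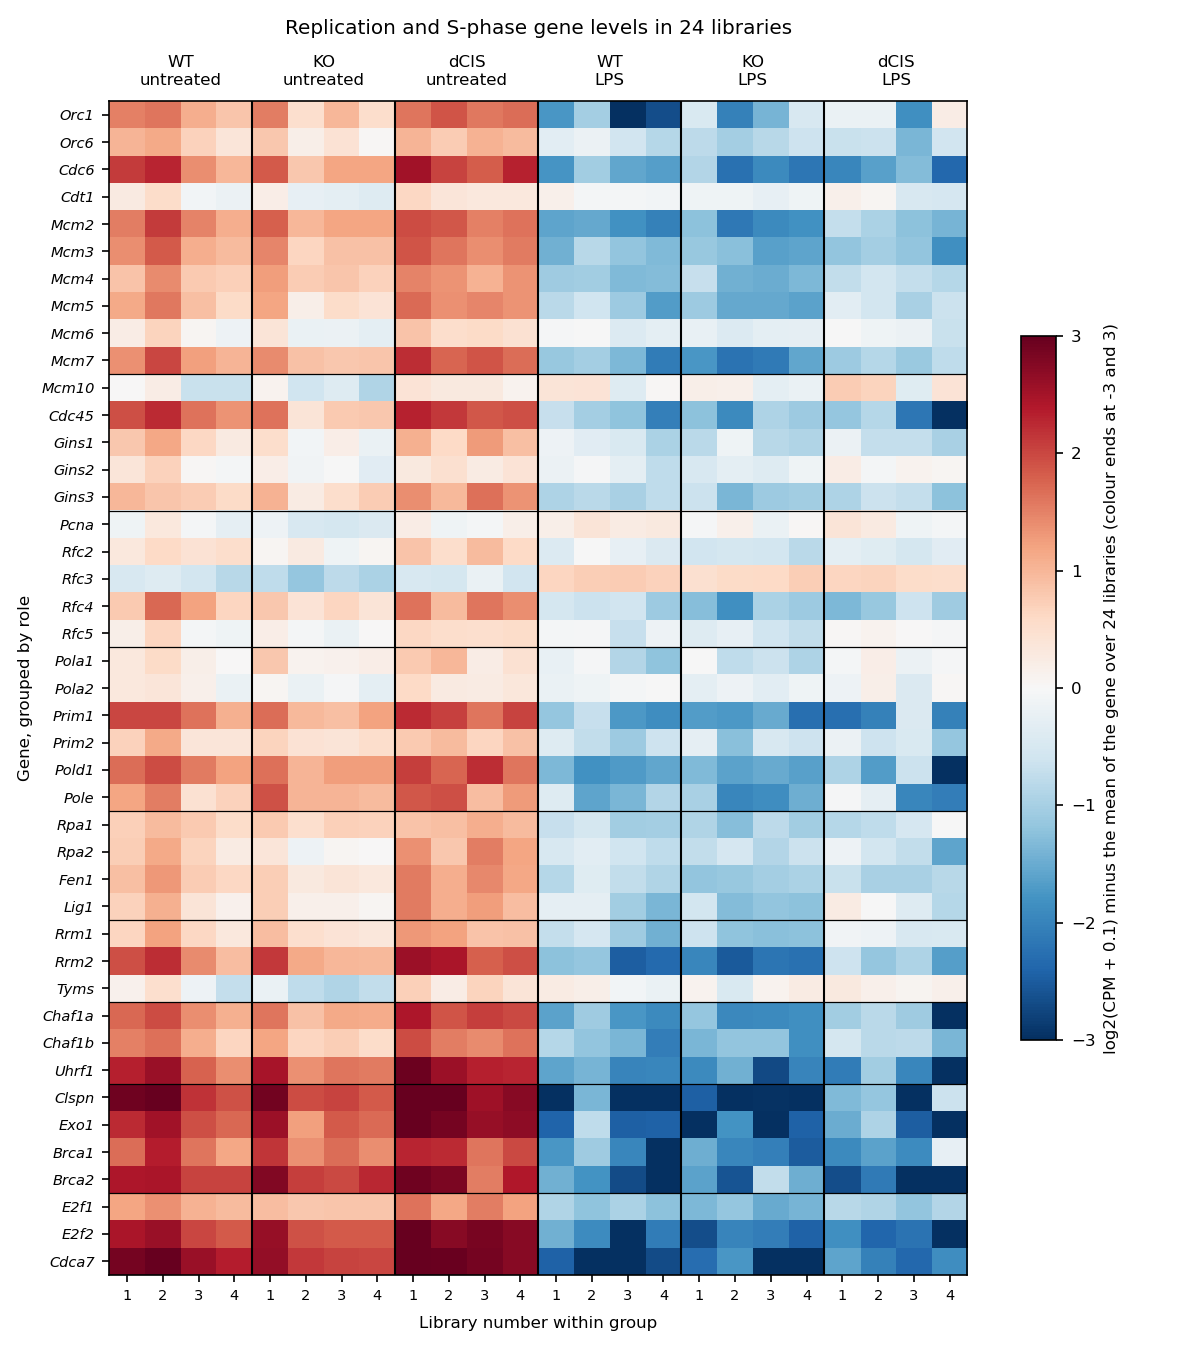
Level of each of the 43 genes (rows, grouped by role) in the 24 libraries (columns, 4 per group), as log2 of CPM plus 0.1 relative to the mean of that gene over the 24 libraries. Most rows are red in the 12 untreated libraries and blue in the 12 LPS libraries, Rfc3 shows the opposite, and untreated KO library 1 and untreated WT library 2 are redder than the other libraries of their groups.

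Origin licensing factors fell by up to 3.73 on the log2 scale in WT, the value of Orc1, the ATPase of the origin recognition complex, which held 10 counts in all over the 4 WT LPS libraries. Among them Mcm2, a subunit of the helicase ring, measured 40.4, 59.2, 39.0 and 29.4 CPM in untreated WT libraries 1 to 4 and 4.58, 4.66, 3.84 and 3.31 CPM after LPS. Its log2 fold change was -3.35 ± 0.23 for WT (adjusted p = 7.54e-13), -3.09 ± 0.23 for KO (adjusted p = 4.83e-12) and -2.82 ± 0.21 for dCIS (adjusted p = 9.20e-12). Mcm7, another ring subunit, measured 31.5, 49.1, 28.3 and 24.6 CPM in untreated WT libraries 1 to 4 and 5.48, 5.90, 4.70 and 2.75 CPM after LPS. The libraries of the treatments did not overlap for either gene. Mcm7 had a log2 fold change of -2.82 ± 0.23 (adjusted p = 2.43e-11) in WT, with -2.92 in KO and -2.86 in dCIS. Cdc6, the ATPase that loads the ring, fell by 3.39 in WT, 3.16 in KO and 4.11 in dCIS, as log2 values. Orc6, a small subunit of the origin recognition complex, fell by 1.32, 1.22 and 1.77 in the same order.

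The subunits of the Mcm ring are needed together but did not change by one amount. Mcm2, Mcm3, Mcm4, Mcm5 and Mcm7 had log2 fold changes between -3.35 and -2.10 in WT, between -3.09 and -2.07 in KO and between -2.90 and -2.03 in dCIS. Mcm6, the remaining subunit, lay far from them. Mcm6 stood untreated at 102, 139, 90.4 and 79.0 CPM in WT, 114, 75.8, 77.0 and 71.2 CPM in KO and 157, 126, 130.0 and 120.1 CPM in dCIS. After LPS it stood at 84.7, 87.0, 65.1 and 70.7 CPM in WT, 75.3, 65.6, 71.6 and 72.2 CPM in KO and 85.9, 79.7, 77.8 and 54.5 CPM in dCIS. Untreated and LPS libraries overlapped in WT and KO and did not in dCIS. Mcm6 had a log2 fold change of -0.42 ± 0.16 for WT (adjusted p = 0.0286), -0.25 ± 0.16 for KO (adjusted p = 0.194) and -0.84 ± 0.16 for dCIS (adjusted p = 6.77e-05). The small fall in WT was not called without untreated WT library 2 (adjusted p = 0.206), without WT LPS library 3 (adjusted p = 0.0976) or without WT LPS library 4 (adjusted p = 0.0750). In KO Mcm6 was called lower with no filter (-0.40, adjusted p = 0.00507).

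Cdt1 brings the ring to origins and is limited in the cell mainly through its inhibitor geminin and through protein destruction. Cdt1 stood untreated at 41.4, 50.5, 32.4 and 30.4 CPM in WT, 39.4, 28.7, 28.1 and 26.1 CPM in KO and 52.7, 44.1, 42.4 and 42.7 CPM in dCIS. With LPS the values were 38.0, 33.1, 32.9 and 32.5 CPM in WT, 31.6, 31.1, 29.0 and 31.5 CPM in KO and 37.9, 35.8, 24.6 and 24.1 CPM in dCIS. These ranges overlapped in WT and KO and separated in dCIS. Cdt1 had a log2 fold change of -0.18 ± 0.16 for WT (adjusted p = 0.329), 0.01 ± 0.16 for KO (adjusted p = 0.955) and -0.57 ± 0.16 for dCIS (adjusted p = 0.00237). Its sign in KO is not settled, since other processing choices put it slightly below 0. The fall in dCIS was -0.31 and not called without dCIS LPS libraries 3 and 4 (adjusted p = 0.125), and with no filter Cdt1 was called lower in WT (-0.34, adjusted p = 0.0366).

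Helicase activation factors were split. Cdc45, which binds the Mcm ring to make the active helicase, measured 9.06, 11.3, 7.43 and 6.01 CPM in untreated WT libraries 1 to 4 and 1.39, 1.09, 0.941 and 0.485 CPM after LPS. On the log2 scale the response was -3.11 ± 0.38 for WT (adjusted p = 7.63e-08), -2.32 ± 0.40 for KO (adjusted p = 1.36e-05) and -3.91 ± 0.40 for dCIS (adjusted p = 3.65e-09). The dCIS LPS libraries held 0.973, 1.23, 0.439 and 0 CPM of Cdc45, the lowest values being in libraries 3 and 4, with fewer genes detected. Gins3, a subunit of the GINS complex, measured 4.60, 4.10, 3.86 and 3.39 CPM in untreated WT libraries 1 to 4 and 1.14, 1.24, 1.10 and 1.29 CPM after LPS, a log2 fold change of -1.73 ± 0.22 (adjusted p = 1.81e-07). It fell in the other genotypes as well, with -1.77 in KO and -2.31 in dCIS. Gins1, a further GINS subunit, fell by 1.21, 0.79 and 1.62 in WT, KO and dCIS.

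Gins2, also of the GINS complex, kept more of its level. Gins2 stood untreated at 15.4, 19.1, 12.2 and 11.4 CPM in WT, 13.6, 11.1, 11.8 and 9.34 CPM in KO and 14.6, 16.7, 14.2 and 15.8 CPM in dCIS. In LPS libraries the levels were 10.5, 11.6, 9.64 and 6.95 CPM in WT, 8.44, 9.61, 9.11 and 10.8 CPM in KO and 13.9, 11.4, 12.8 and 12.3 CPM in dCIS. This corresponds to a log2 fold change of -0.58 ± 0.16 for WT (adjusted p = 0.00260), -0.27 ± 0.16 for KO (adjusted p = 0.151) and -0.28 ± 0.16 for dCIS (adjusted p = 0.123). It passed the test in WT, and the treatments overlapped in WT and KO and did not in dCIS. With no filter it was called in KO (-0.42, adjusted p = 0.0462) and in dCIS (-0.42, adjusted p = 0.0361) too, and with the groups compared alone in KO (-0.36, adjusted p = 0.0447). The difference of the Gins2 response between genotypes did not pass the test (adjusted p = 1.000 for KO against WT and 0.753 for dCIS against WT).

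Mcm10 does not belong to the ring, but helps the helicase start and holds polymerase alpha at the fork. Mcm10 stood untreated at 15.9, 18.7, 10.0 and 9.94 CPM in WT, 17.1, 10.5, 12.2 and 8.40 CPM in KO and 21.3, 19.4, 19.4 and 17.0 CPM in dCIS. After LPS it stood at 20.8, 21.2, 12.2 and 16.3 CPM in WT, 18.0, 17.6, 13.0 and 13.9 CPM in KO and 27.2, 25.5, 12.3 and 21.3 CPM in dCIS. Untreated and LPS libraries overlapped in each genotype. Its log2 fold changes were 0.37 ± 0.24 for WT (adjusted p = 0.180), 0.37 ± 0.24 for KO (adjusted p = 0.183) and 0.16 ± 0.23 for dCIS (adjusted p = 0.562), none of which passed the test, and the value in dCIS was -0.22 without dCIS LPS libraries 1 and 2. With the library number as a block within each genotype, Mcm10 was called higher in WT (0.39, adjusted p = 0.0385) and in KO (0.40, adjusted p = 0.0358). That pairing was seen over all genes in WT and KO, but over the members in KO it did not hold at each number.

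The sliding clamp and its loader held Rfc3 and Pcna, which were called higher, as was Tyms of nucleotide supply in KO. Rfc3, a small subunit of the clamp loader, was the 1 member called higher in each genotype. Rfc3 stood untreated at 15.3, 16.3, 14.5 and 12.0 CPM in WT, 12.6, 9.49, 12.4 and 11.0 CPM in KO and 15.1, 14.7, 18.6 and 14.3 CPM in dCIS. With LPS the values were 33.4, 35.5, 35.9 and 34.4 CPM in WT, 29.9, 31.7, 32.5 and 35.8 CPM in KO and 33.4, 33.9, 31.2 and 30.6 CPM in dCIS. Each LPS library lay above each untreated library of its genotype. Rfc3 had a log2 fold change of 1.26 ± 0.11 for WT (adjusted p = 1.36e-10), 1.52 ± 0.11 for KO (adjusted p = 4.56e-12) and 1.04 ± 0.11 for dCIS (adjusted p = 4.76e-09).

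The partners of Rfc3 in the loader moved the other way. Rfc4 measured 4.97, 9.55, 6.67 and 4.51 CPM in untreated WT libraries 1 to 4 and 1.96, 1.79, 1.88 and 1.29 CPM after LPS. edgeR estimated a log2 fold change of -1.89 ± 0.25 for WT (adjusted p = 2.53e-07), -1.91 ± 0.27 for KO (adjusted p = 8.65e-07) and -2.50 ± 0.26 for dCIS (adjusted p = 3.02e-09). Rfc2 fell by 0.74, 0.68 and 1.12 in WT, KO and dCIS, and Rfc5 by 0.41, 0.47 and 0.52. The large subunit Rfc1, which is not one of the 43, fell by 1.35 in WT. The call of Rfc5 in WT (adjusted p = 0.0276) was lost without untreated WT library 2 (-0.22, adjusted p = 0.219) and without WT LPS library 3 (-0.28, adjusted p = 0.137), and that in KO without KO LPS library 4 (adjusted p = 0.0524).

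Pcna, the clamp itself, also serves DNA repair outside S phase. Pcna stood untreated at 242, 327, 252 and 219.6 CPM in WT, 238, 191, 183 and 195 CPM in KO and 309, 243, 256 and 297 CPM in dCIS. In LPS libraries the levels were 298, 345, 316 and 322 CPM in WT, 259, 296, 229 and 271 CPM in KO and 345, 321, 243 and 254 CPM in dCIS. The treatments overlapped in each genotype. Its log2 fold change was 0.30 ± 0.13 for WT (adjusted p = 0.0450), 0.39 ± 0.13 for KO (adjusted p = 0.0107) and 0.08 ± 0.13 for dCIS (adjusted p = 0.626), a small rise that passed the test in WT and KO. The call in WT was lost with no filter (0.14, adjusted p = 0.479), with RLE size factors (adjusted p = 0.0649), with DESeq2 (adjusted p = 0.0625) and without any 1 of WT untreated libraries 1, 3 and 4 or WT LPS libraries 2, 3 and 4 (adjusted p from 0.0675 to 0.163). That in KO was lost with no filter (0.24, adjusted p = 0.154) and without both KO libraries numbered 2 (0.30, adjusted p = 0.0885). In dCIS the sign depended on the processing, with -0.07 when no filter was applied and -0.17 without dCIS LPS libraries 1 and 2.

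Polymerase and primase subunits ranged from near no change to large falls. Pold1, the catalytic subunit of polymerase delta, measured 24.4, 30.0, 22.5 and 17.8 CPM in untreated WT libraries 1 to 4 and 2.94, 2.10, 2.27 and 2.51 CPM after LPS. On the log2 scale the response was -3.27 ± 0.29 for WT (adjusted p = 2.76e-10), -2.87 ± 0.29 for KO (adjusted p = 3.39e-09) and -3.31 ± 0.29 for dCIS (adjusted p = 1.36e-10). The dCIS LPS libraries 1 to 4 held 3.97, 2.30, 4.83 and 0.572 CPM of Pold1. Prim1, the catalytic subunit of primase, measured 9.61, 9.55, 7.34 and 4.94 CPM in untreated WT libraries 1 to 4 and 0.981, 1.40, 0.627 and 0.566 CPM after LPS. Prim1 had a log2 fold change of -3.13 ± 0.33 (adjusted p = 6.72e-09) in WT, with -3.17 in KO and -3.58 in dCIS. Pole, the catalytic subunit of polymerase epsilon, fell by 2.05, 2.87 and 2.41 in WT, KO and dCIS. Prim2, the large primase subunit, fell by 1.38, 1.13 and 1.40. Pola1, the catalytic subunit of polymerase alpha, changed less, by -0.80, -0.90 and -0.66, and each value passed the test. Its call in dCIS was lost without dCIS LPS libraries 3 and 4 (-0.57, adjusted p = 0.0929) and without untreated dCIS library 2 (-0.52, adjusted p = 0.0550).

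Pola2, the accessory subunit of polymerase alpha, lay near the threshold. Pola2 stood untreated at 23.5, 24.4, 20.8 and 16.5 CPM in WT, 19.7, 16.5, 18.4 and 15.4 CPM in KO and 28.6, 22.7, 22.4 and 23.7 CPM in dCIS. After LPS it stood at 16.3, 17.2, 18.0 and 18.7 CPM in WT, 15.4, 16.8, 15.0 and 17.2 CPM in KO and 16.9, 21.4, 13.9 and 19.4 CPM in dCIS. The treatments overlapped in WT and KO and did not in dCIS. This corresponds to a log2 fold change of -0.28 ± 0.13 for WT (adjusted p = 0.0666), -0.12 ± 0.13 for KO (adjusted p = 0.453) and -0.45 ± 0.13 for dCIS (adjusted p = 0.00432). The call in dCIS was lost without dCIS LPS libraries 3 and 4 (-0.35, adjusted p = 0.0507), and Pola2 was called lower in WT with RLE size factors (adjusted p = 0.0397), with DESeq2 (0.0367), with no filter (-0.44, adjusted p = 0.0118) and with the groups compared alone (0.0316).

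Factors that bind single strands and finish the lagging strand fell in each genotype. Fen1, the nuclease that trims flaps between Okazaki fragments, measured 35.0, 46.0, 31.7 and 28.6 CPM in untreated WT libraries 1 to 4 and 10.2, 14.4, 11.0 and 9.94 CPM after LPS. edgeR estimated a log2 fold change of -1.63 ± 0.15 for WT (adjusted p = 4.30e-10), -1.52 ± 0.15 for KO (adjusted p = 2.83e-09) and -2.19 ± 0.15 for dCIS (adjusted p = 1.55e-12). Rpa1, the large subunit of the single-strand binding protein, measured 43.5, 51.5, 46.0 and 38.5 CPM in untreated WT libraries 1 to 4 and 16.3, 18.2, 12.7 and 12.9 CPM after LPS. Rpa1 had a log2 fold change of -1.58 ± 0.15 (adjusted p = 8.50e-10) in WT, with -1.68 in KO and -1.46 in dCIS. Rpa2, its middle subunit, fell by 1.28, 0.77 and 1.93 in WT, KO and dCIS, and Lig1, the ligase that seals the fragments, by 1.27, 1.34 and 1.43.

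Nucleotide supply held both a large fall and a gene not called lower in any genotype. Rrm2, the regulated subunit of ribonucleotide reductase, stood untreated at 21.8, 26.7, 15.2 and 10.9 CPM in WT, 25.0, 12.5, 11.4 and 11.2 CPM in KO and 34.0, 31.2, 19.7 and 21.9 CPM in dCIS. After LPS Rrm2 stood at 2.37, 2.48, 0.941 and 1.05 CPM in WT, 1.39, 0.898, 1.17 and 1.12 CPM in KO and 3.65, 2.47, 2.93 and 1.72 CPM in dCIS. Untreated and LPS libraries were far apart in each genotype. Its log2 fold change was -3.44 ± 0.34 for WT (adjusted p = 2.02e-09), -3.71 ± 0.37 for KO (adjusted p = 2.10e-09) and -3.31 ± 0.32 for dCIS (adjusted p = 1.39e-09). Rrm1, the large subunit of the same enzyme, fell by 1.63, 1.62 and 1.37 in WT, KO and dCIS.

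Tyms, thymidylate synthase, makes the thymidine nucleotide that DNA alone needs. Tyms stood untreated at 10.3, 13.3, 8.34 and 5.67 CPM in WT, 8.13, 5.43, 4.95 and 5.59 CPM in KO and 15.4, 10.9, 15.0 and 12.2 CPM in dCIS. With LPS the values were 11.1, 10.6, 8.78 and 8.08 CPM in WT, 10.0, 6.83, 10.1 and 11.1 CPM in KO and 11.5, 10.4, 9.96 and 10.4 CPM in dCIS. In KO the LPS libraries lay mostly above the untreated ones, while the treatments overlapped in WT and in dCIS. On the log2 scale the response was 0.03 ± 0.20 for WT (adjusted p = 0.900), 0.66 ± 0.21 for KO (adjusted p = 0.00793) and -0.34 ± 0.20 for dCIS (adjusted p = 0.143). The rise passed the test in KO, but the difference of the KO response from the WT response did not (log2 difference 0.63, adjusted p = 1.000). The value in WT is too close to 0 to carry a sign, since several processing choices put it at or just below 0. With no filter Tyms was called lower in dCIS (-0.48, adjusted p = 0.0220).

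Chromatin assembly factors fell in each genotype. Chaf1a, the large subunit of the CAF-1 complex that places histones behind the fork, measured 27.4, 32.1, 21.8 and 17.2 CPM in untreated WT libraries 1 to 4 and 2.62, 3.88, 2.35 and 2.10 CPM after LPS. This corresponds to a log2 fold change of -3.16 ± 0.29 for WT (adjusted p = 5.09e-10), -2.93 ± 0.30 for KO (adjusted p = 3.43e-09) and -3.43 ± 0.29 for dCIS (adjusted p = 7.39e-11). Chaf1b, the middle subunit of CAF-1, measured 15.6, 17.2, 11.6 and 8.53 CPM in untreated WT libraries 1 to 4 and 2.94, 2.33, 2.04 and 1.21 CPM after LPS. Chaf1b had a log2 fold change of -2.63 ± 0.25 (adjusted p = 7.04e-10) in WT, with -2.22 in KO and -2.53 in dCIS. Uhrf1, which brings the maintenance methyltransferase Dnmt1 to newly copied DNA, fell by 3.87, 3.84 and 4.63 in WT, KO and dCIS. In dCIS LPS library 4, with fewer genes detected, Uhrf1 held 0.0818 CPM and Chaf1a 0.818 CPM. Libraries 1 to 3 of that group held 1.46, 3.12 and 1.61 CPM of Uhrf1 and 3.89, 4.60 and 3.88 CPM of Chaf1a.

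Checkpoint and repair members came close to the detection limit after LPS. Brca2, which acts in repair by recombination, measured 6.08, 6.19, 4.57 and 4.56 CPM in untreated WT libraries 1 to 4 and 0.327, 0.233, 0.0784 and 0 CPM after LPS, or 8 counts in all over the 4 WT LPS libraries. Its log2 fold change in WT was -5.01 ± 0.48 (adjusted p = 9.91e-10). Clspn, the adaptor through which stalled forks activate the kinase Chek1, measured 15.5, 17.0, 9.24 and 7.71 CPM in untreated WT libraries 1 to 4 and 0.163, 0.699, 0.157 and 0.162 CPM after LPS. Clspn had a log2 fold change of -5.34 ± 0.53 (adjusted p = 1.79e-09) in WT. Exo1, a nuclease of mismatch repair and break ends, held 9 counts over the WT LPS libraries and 3 over those of KO, and Brca2 held 3 over those of dCIS. Fold changes of these genes after LPS depend on the prior count of the fit, so the counts are the safer description. Brca1, a partner of Brca2 in repair by recombination, fell by 3.72, 3.82 and 3.40 (log2) in WT, KO and dCIS.

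The transcription factors themselves fell too. E2f1, an activating E2F factor, measured 44.0, 50.2, 39.9 and 37.4 CPM in untreated WT libraries 1 to 4 and 10.3, 8.31, 10.0 and 8.25 CPM after LPS. edgeR estimated a log2 fold change of -2.22 ± 0.13 for WT (adjusted p = 2.30e-14), -2.22 ± 0.13 for KO (adjusted p = 3.81e-14) and -2.35 ± 0.13 for dCIS (adjusted p = 6.29e-15). Each LPS library lay below each untreated library of its genotype. Cdca7, known as a target of E2F factors and a partner of the remodeller Hells, measured 20.1, 23.4, 16.4 and 14.0 CPM in untreated WT libraries 1 to 4 and 0.409, 0.233, 0 and 0.323 CPM after LPS. Cdca7 had a log2 fold change of -6.23 ± 0.36 (adjusted p = 2.87e-14) in WT, with -5.08 in KO and -5.15 in dCIS. It held 12 counts over the WT LPS libraries, and E2f2 17, so these fold changes too depend on the prior count. E2f2, another activating E2F factor, fell by 4.62, 4.73 and 5.76.

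**Figure D2:**
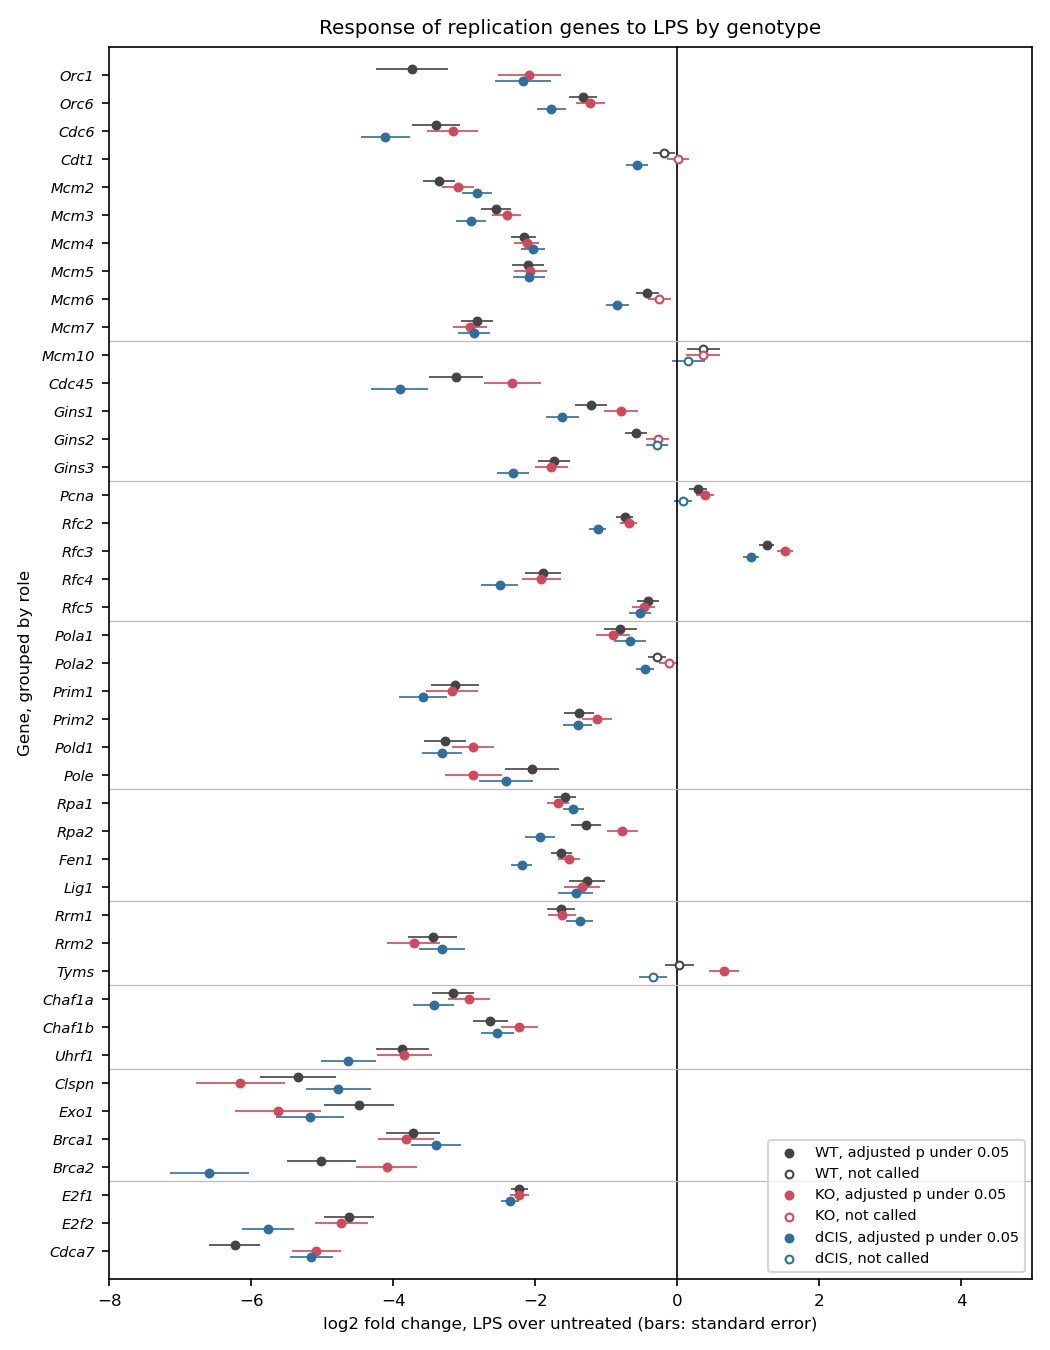
The log2 fold change of LPS over untreated for each of the 43 genes (rows, grouped by role) in WT, KO and dCIS, with bars of 1 standard error and open points where the adjusted p was not under 0.05. Most points lie between -1 and -6, Rfc3 lies above 1 in each genotype, and Cdt1, Mcm6, Mcm10, Gins2, Pcna, Pola2 and Tyms lie within 1 of 0.

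The 3 genotypes were also compared by the difference of their LPS responses. For KO against WT edgeR called 0 of the 43 members, 2 having an unadjusted p under 0.05 (1.75% of all genes), where 0.0203% of all genes were called. For dCIS against WT 0 members passed, 4 having an unadjusted p under 0.05 (7.85% of all genes), and 0% of all genes were called. DESeq2 called 0 members in either. The members with an unadjusted p under 0.05 were Orc1 and Tyms for KO, and Orc1, Rfc2, Rpa2 and Fen1 for dCIS, the lowest p being 0.0135 for Fen1. Its log2 difference in dCIS was -0.56 (SE 0.21, adjusted p = 0.552).

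Before LPS the group means of the replication genes stood lowest in KO and highest in dCIS. For 40 of 43 members (93.0%) the mean CPM of KO lay below that of WT and that of WT below that of dCIS, against 28.3% of all tested genes. The members' mean log2 CPM was 3.86 ± 0.289 (SD, n = 4) in KO, 4.18 ± 0.348 in WT and 4.55 ± 0.145 in dCIS. The libraries of KO and dCIS did not overlap in this mean, and those of WT overlapped with both. After LPS the same order held for 21 members (48.8%), against 16.2% of all tested genes. Members move together between libraries, so such counts are not counts of independent observations. In untreated WT, for example, library 2 was the highest for 41 members and library 4 the lowest for 40.

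**Figure D3:**
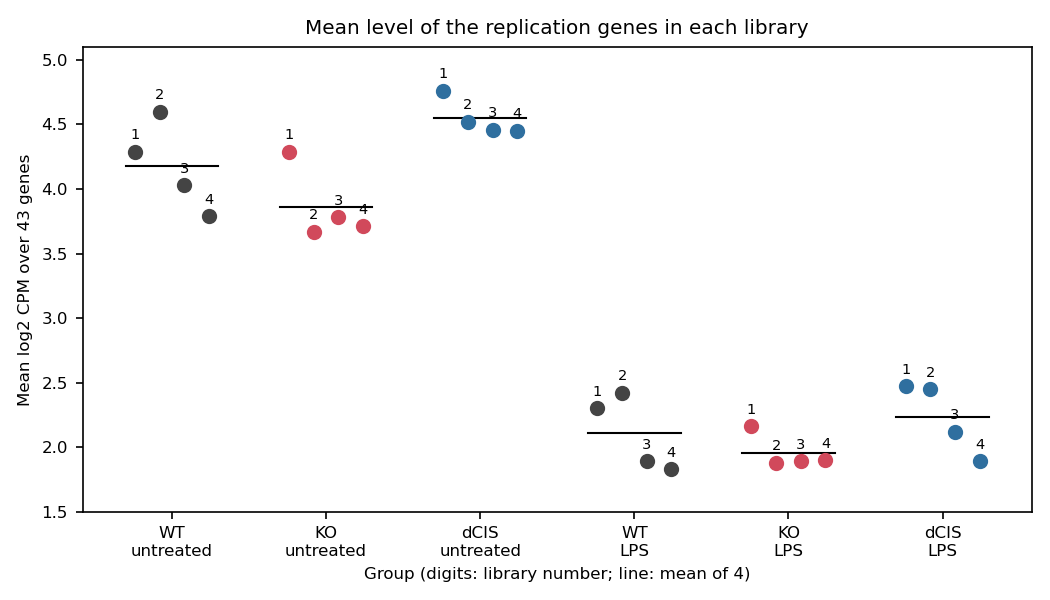
Mean log2 CPM over the 43 genes in each library, by group, with the library number above each point and a line at the mean of the 4 libraries. Untreated libraries lie between 3.67 and 4.76 and LPS libraries between 1.83 and 2.47, and the 4 untreated dCIS libraries lie above the 4 untreated KO libraries.

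Untreated KO against untreated dCIS was the comparison of genotypes in which the members passed the test widely. In KO 31 of 43 (72.1%) were lower and 0 higher, where 21.3% of all tested genes were called and 9.25% were lower. All 43 log2 fold changes were negative, from -1.17 (Rpa2) to -0.20, with a median of -0.68 against 0.00 over all tested genes. For 25 members each KO library lay below each dCIS library, against 7.75% of all genes. The count was 18 without dCIS library 1 and 36 without KO library 1, and 17 members were called whichever of the 8 libraries was left out. The calls lost in at least 1 of those fits were Orc6, Cdc6, Mcm3, Mcm10, Gins3, Pcna, Pola2, Prim1, Rrm1, Rrm2, Clspn, Exo1, E2f2 and Cdca7. Over single library numbers KO lay below dCIS for 41, 43, 40 and 43 members at numbers 1 to 4, against 49.2%, 45.7%, 50.8% and 49.3% of all tested genes.

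The macrophage marker Adgre1 was higher in KO than in dCIS (log2 fold change 0.61, adjusted p = 0.00666), the 1 of 8 macrophage markers that was called, and their sums are given above. The neutrophil marker Mmp8 was also higher (log2 fold change 0.74, adjusted p = 0.0494), and the 8 neutrophil markers summed to 20.4 to 42.2 CPM in KO, 13.5 to 21.7 CPM in WT and 16.6 to 22.8 CPM in dCIS, with Ly6g, Camp, Ltf, Ngp and Retnlg under 1 CPM in every library. Pdgfrb was higher as well (log2 fold change 2.05, adjusted p = 0.0337), while the 7 fibroblast and endothelial markers summed to 3.38 to 6.15 CPM in KO and 3.59 to 4.97 CPM in dCIS. The part of these cells in the replication genes was not tested.

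Among the licensing factors Mcm5 measured 58.5, 29.0, 37.8 and 34.2 CPM in KO and 84.2, 66.9, 71.2 and 65.7 CPM in dCIS in untreated libraries 1 to 4. Its log2 fold change of KO over dCIS was -0.85 ± 0.21 (adjusted p = 0.00720). Mcm7 measured 32.3, 22.3, 21.1 and 21.5 CPM in KO and 56.5, 40.6, 44.8 and 39.1 CPM in dCIS, without overlap, and Mcm3 measured 79.7, 44.8, 53.1 and 52.4 CPM in KO and 106, 87.2, 75.7 and 84.8 CPM in dCIS, with KO library 1 above 1 dCIS library. Their log2 fold changes were -0.90 and -0.62. Cdc6 measured 9.15, 4.42, 5.79 and 5.77 CPM in KO and 14.8, 10.4, 9.07 and 12.8 CPM in dCIS, where KO library 1 again reached the dCIS range. Orc6 measured 13.1, 8.36, 10.1 and 7.56 CPM in KO and 15.2, 12.7, 15.4 and 14.4 CPM in dCIS, with overlap. Cdc6 and Orc6 differed by -0.91 and -0.56, and the values given above for Cdt1 and Mcm6 correspond to -0.57 and -0.66. Orc1, Mcm2 and Mcm4 did not pass the test, with -0.77, -0.43 and -0.40.

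Of the helicase activation factors, Cdc45 measured 7.36, 3.05, 4.06 and 4.13 CPM in KO and 11.8, 10.4, 8.63 and 9.14 CPM in dCIS, without overlap. The log2 fold change was -1.10 ± 0.30 (adjusted p = 0.0127). Gins1 measured 8.09, 5.31, 6.43 and 4.88 CPM in KO and 11.8, 8.48, 13.6 and 10.6 CPM in dCIS and also separated the genotypes. Gins3 measured 4.70, 2.69, 3.27 and 3.85 CPM in KO and 6.02, 4.50, 7.29 and 5.90 CPM in dCIS, with overlap at KO library 1. The log2 fold changes were -0.85 for Gins1, -0.71 for Gins3 and -0.68 for Mcm10, whose values are given above. Gins2 did not pass the test (-0.42).

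Of the clamp and its loader 5 of 5 members were called lower in KO, while the large loader subunit Rfc1, outside the 43, was not called. Rfc2 measured 27.0, 31.0, 23.4 and 27.0 CPM in KO and 46.7, 37.2, 49.7 and 39.2 CPM in dCIS, and each KO library lay below each dCIS library. KO over dCIS was, on the log2 scale, -0.67 ± 0.11 (adjusted p = 7.16e-04). Rfc4 measured 5.08, 3.82, 4.50 and 3.76 CPM in KO and 8.98, 5.58, 8.87 and 7.63 CPM in dCIS, also without overlap, and Rfc5 measured 13.1, 11.0, 10.00 and 11.5 CPM in KO and 17.6, 16.7, 16.2 and 17.0 CPM in dCIS, again without overlap. They differed by -0.86 and -0.57, and Rfc3 and Pcna by -0.47 and -0.45. Rfc3 is thus lower in untreated KO although it rose after LPS.

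Of the polymerase and primase subunits 2 of 6 were called. Prim1 measured 7.60, 4.62, 4.40 and 5.45 CPM in KO and 11.3, 9.84, 7.19 and 9.67 CPM in dCIS, with KO library 1 inside the dCIS range, and had a log2 fold change of -0.78 ± 0.26 (adjusted p = 0.0329). Pola2 differed by -0.48 from the values given above. Pola1, Prim2, Pold1 and Pole did not pass the test, with -0.30, -0.33, -0.63 and -0.28.

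Rpa2 differed most among the 43. It measured 17.5, 12.3, 14.1 and 13.6 CPM in KO and 35.1, 23.9, 39.8 and 30.9 CPM in dCIS, without overlap, and had a log2 fold change of -1.17 ± 0.20 (adjusted p = 9.21e-04). Fen1 measured 31.0, 22.8, 24.1 and 23.0 CPM in KO and 54.5, 39.8, 50.7 and 41.7 CPM in dCIS, again without overlap. Lig1 measured 37.3, 24.5, 24.8 and 23.1 CPM in KO and 65.5, 47.7, 53.4 and 42.4 CPM in dCIS, and separated the genotypes too. The log2 fold changes of Fen1 and Lig1 were -0.89 and -0.93, while Rpa1 did not pass the test (-0.28).

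In nucleotide supply Tyms showed the largest difference, -1.15 ± 0.20 (adjusted p = 0.00112), from the values given above. Rrm1 measured 61.6, 45.6, 43 and 41.0 CPM in KO and 79.8, 75.1, 58.3 and 59.6 CPM in dCIS, with KO library 1 inside the dCIS range. The fitted difference was -0.51, and that of Rrm2 was -0.83. The call of Rrm1 held in 1 of the 8 fits without 1 of these libraries, and that of Tyms in 8.

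The chromatin assembly factor Chaf1a measured 25.2, 15.0, 18.1 and 17.7 CPM in KO and 44.6, 30.3, 35.0 and 32.6 CPM in dCIS, without overlap. Chaf1b measured 12.5, 8.52, 9.11 and 7.93 CPM in KO and 21.2, 15.9, 14.6 and 17.0 CPM in dCIS, also without overlap. Their log2 fold changes were -0.91 and -0.85, and Uhrf1 did not pass the test (-0.74). Clspn measured 15.3, 7.92, 8.36 and 7.32 CPM in KO and 27.9, 21.4, 12.0 and 13.6 CPM in dCIS, and Exo1 measured 5.62, 2.17, 3.37 and 3.05 CPM in KO and 7.94, 6.94, 5.85 and 6.08 CPM in dCIS. For Clspn KO library 1 lay above 2 dCIS libraries, and for Exo1 KO library 1 lay just below the lowest dCIS library. They differed by -0.95 and -0.92, each called in 3 of the 8 fits without 1 library. Brca1 and Brca2 did not pass the test.

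E2F factors followed. E2f1 measured 36.9, 34.3, 34.8 and 34.5 CPM in KO and 60.3, 43.8, 56.5 and 45.0 CPM in dCIS, where the KO libraries lay close together and below each dCIS library. That is a log2 fold change of -0.55 ± 0.11 (adjusted p = 0.00301). E2f2 measured 11.0, 6.71, 6.38 and 6.38 CPM in KO and 16.4, 11.9, 12.9 and 11.9 CPM in dCIS, and Cdca7 measured 16.9, 11.9, 11.0 and 10.8 CPM in KO and 28.8, 21.3, 20.1 and 18.1 CPM in dCIS, both without overlap. Their log2 fold changes were -0.80 and -0.80.

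**Figure D4:**
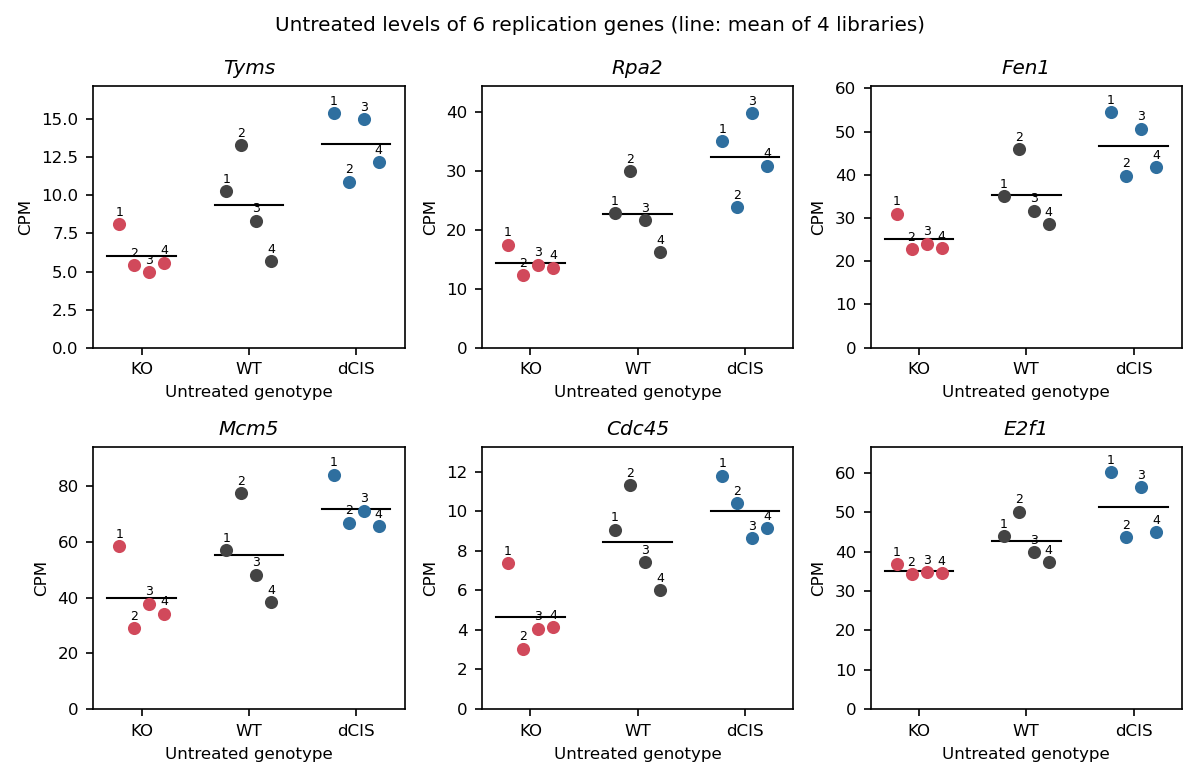
CPM of Tyms, Rpa2, Fen1, Mcm5, Cdc45 and E2f1 in the 4 untreated libraries of KO, WT and dCIS, with the library number above each point and a line at the mean. In each panel the 4 KO libraries lie below the 4 dCIS libraries, and the WT libraries overlap with one or both.

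WT lay between the other genotypes, and its own comparisons called few members. In untreated KO against WT 40 of 43 log2 fold changes were negative, with a median of -0.34, and 4 members (9.30%) were called, all lower, where 7.31% of all genes were called and 2.28% lower. They are Rfc2, Rfc3, Rpa2 and Fen1. Rfc2 had WT values of 32.3, 38.8, 34.7 and 37.4 CPM, above each KO library given earlier, and a log2 fold change of -0.40 ± 0.11 (adjusted p = 0.0329). For Rpa2 the WT values were 22.8, 30.0, 21.7 and 16.2 CPM, which overlap with KO, and the log2 fold change was -0.66 ± 0.20 (adjusted p = 0.0450). Fen1 and Rfc3, whose WT values are also given earlier, overlapped with KO as well, with log2 fold changes of -0.49 (adjusted p = 0.0373) and -0.36 (adjusted p = 0.0485). These calls are fragile. Leaving out 1 of the 8 KO or WT libraries left 0 members for WT libraries 2 and 3 and KO libraries 3 and 4, 1 for WT library 1 and KO libraries 1 and 2, and 5 for WT library 4.

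Untreated dCIS lay above WT for 43 of 43 members, with a median log2 fold change of 0.35, but edgeR called 0 of them and DESeq2 called 0. At an unadjusted p under 0.05 there were 15, against 3.61% of all genes, and 0.0542% of all genes were called. Gins3 had the smallest p, with a log2 fold change of 0.57 ± 0.19 (adjusted p = 1.00). For E2f2 each dCIS library lay above each WT library, at 9.75, 10.8, 7.15 and 6.40 CPM in WT, and the log2 fold change was 0.64 ± 0.23 (adjusted p = 1.00).

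After LPS fewer members were called between genotypes. KO against dCIS called 2 of 43 members (4.65%), both lower, where 2.18% of all genes were called and 0.834% lower. Mcm7 measured 3.52, 2.52, 2.68 and 4.07 CPM in KO and 5.60, 6.66, 5.49 and 7.11 CPM in dCIS, a log2 fold change of -0.95 ± 0.26 (adjusted p = 0.0491). Rrm1 measured 21.0, 13.9, 13.5 and 13.8 CPM in KO and 29.8, 29.1, 23.1 and 23.6 CPM in dCIS, a log2 fold change of -0.77 ± 0.20 (adjusted p = 0.0417). Neither gene overlapped between these groups. Both calls were lost without dCIS LPS libraries 3 and 4 together or either of them, and without any 1 of KO LPS libraries 2, 3 and 4. In KO against WT edgeR called 0 members and DESeq2 0, while 5 had an unadjusted p under 0.05 (21.2% of all genes), where 2.74% of all genes were called. In dCIS against WT edgeR called 0 and DESeq2 1, while 7 had an unadjusted p under 0.05 (13.1% of all genes), where 0.258% of all genes were called.

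Libraries of 1 group also differed in these genes. In untreated WT library 2 was the highest of its group for 41 of 43 members and library 4 the lowest for 40, against 24.7% and 27.4% of all tested genes. The members' mean log2 CPM was 4.29, 4.60, 4.03 and 3.79 in WT libraries 1 to 4. In untreated KO library 1 was the highest for 42 members, against 21.4% of all tested genes, at a mean of 4.29 where libraries 2 to 4 had 3.67, 3.78 and 3.71. In untreated dCIS library 1 was the highest for 30 members, against 16.6% of all tested genes. The summed progenitor markers were 3.07 CPM in WT library 2 and 3.00 CPM in KO library 1, and the summed macrophage markers 18909 and 19805 CPM. Their part in these differences was not tested.

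The labels number the libraries of each group from 1 to 4, and within WT and within KO the untreated and LPS libraries of a number deviated together over all genes. The number was tested within each genotype, with treatment held, because these genes had already been seen to vary by number. The calls describe that pattern and are not independent evidence of it. It was called for 5 members in WT (11.6%), 7 in KO (16.3%) and 6 in dCIS (14.0%), where 0.474%, 5.15% and 17.4% of all tested genes were called. The share in dCIS lay below that of all genes, so calls there do not set the members apart. Rrm1, Rrm2, Lig1 and Mcm2 were called in each genotype. Mcm5 was called in WT and KO, Mcm4 and Pola1 in KO, and Pole and Pold1 in dCIS.

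Rrm1 had the smallest p in WT and KO (adjusted p = 0.00282 and 0.00444; 0.0138 in dCIS). Untreated WT libraries 1 to 4 held 50.7, 74.1, 49.5 and 40.3 CPM and LPS libraries 19.5, 22.6, 15.4 and 11.9 CPM, so that number 2 was highest and number 4 lowest in both. In KO number 1 was highest in both, at 61.6 CPM untreated and 21.0 CPM after LPS. In dCIS numbers 1 and 2 were higher than 3 and 4 in both, and dCIS LPS libraries 3 and 4 had fewer genes detected. Lig1 had the smallest p in dCIS (adjusted p = 0.00557). It stood at 65.5, 47.7, 53.4 and 42.4 CPM untreated and 26.2, 22.0, 16.9 and 12.3 CPM after LPS in dCIS. In WT it stood at 36.0, 46.4, 28.9 and 24.1 CPM and 18.5, 18.3, 10.8 and 8.49 CPM, with adjusted p = 0.00884, the same as for Mcm5 (0.00884), which stood at 57.1, 77.6, 48.3 and 38.5 CPM and 14.7, 17.0, 12.1 and 8.00 CPM.

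For Mcm2 in KO (adjusted p = 0.00499) the untreated libraries held 47.8, 27.7, 31.7 and 31.5 CPM and the LPS libraries 5.84, 3.05, 3.59 and 3.83 CPM, with number 1 highest and number 2 lowest in both. Mcm5 in KO (adjusted p = 0.00512) held 58.5, 29.0, 37.8 and 34.2 CPM and 12.0, 8.80, 8.78 and 8.45 CPM, with number 1 again highest. Pole in dCIS (adjusted p = 0.0103) held 17.9, 18.6, 9.22 and 11.8 CPM and 4.70, 3.95, 1.17 and 1.06 CPM, with numbers 1 and 2 above 3 and 4 in both treatments. The part of the fewer genes detected in dCIS LPS libraries 3 and 4 was not tested. These calls rest on few libraries. Without untreated WT library 2 the count in WT was 0, and without untreated KO library 1 the count in KO was 0. A fit of each genotype's 8 libraries alone called 23 members in WT, 8 in KO and 0 in dCIS. The share of all genes called in those fits is not given here, so these counts do not set the members apart.

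**Figure D5:**
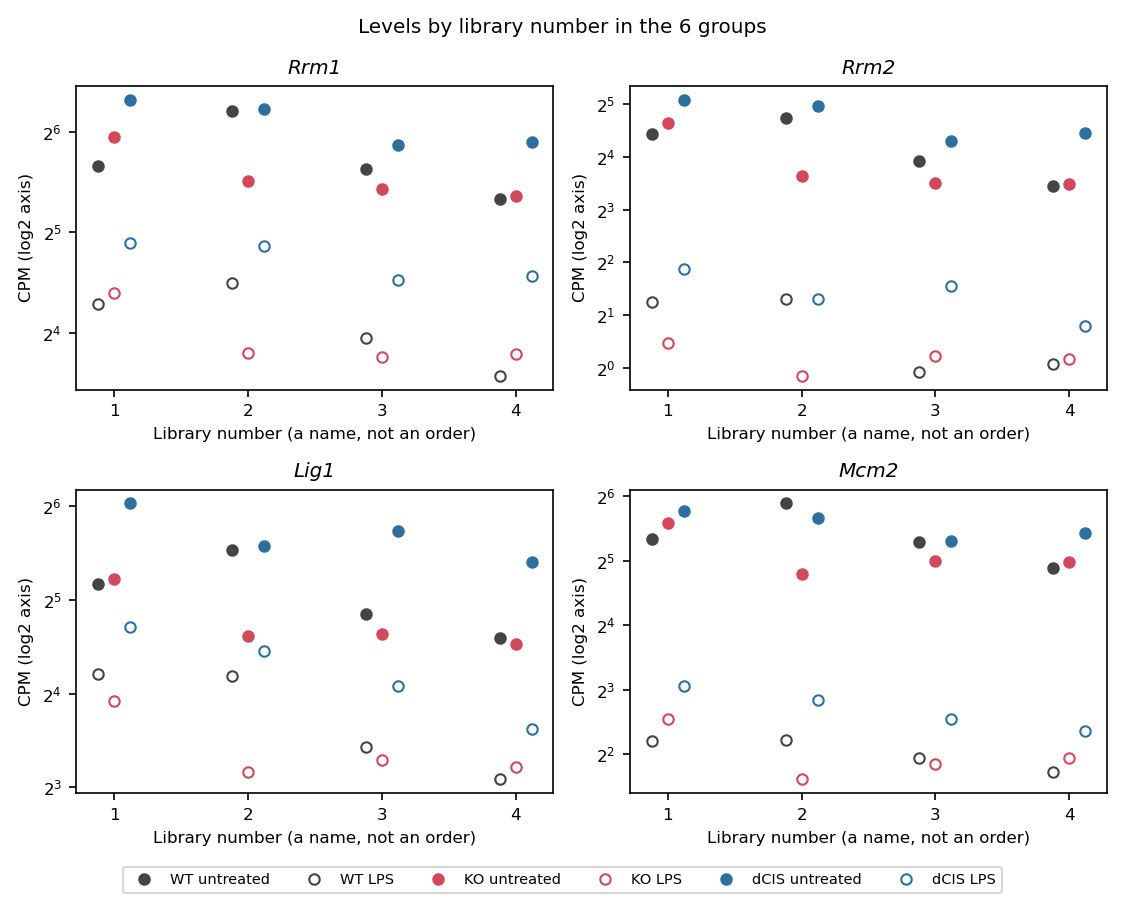
CPM on a log2 axis of Rrm1, Rrm2, Lig1 and Mcm2, the 4 members called for library number in each genotype, by library number, with filled points for untreated and open points for LPS libraries. Number 1 is highest among KO libraries in both treatments, and WT numbers 1 and 2 lie above number 4 in both.

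Genes of the same pathways outside the 43 were counted from lists, to be read against the 30.4% of all tested genes called higher and 31.0% called lower in WT after LPS. Among origin and fork factors 7 rose and 23 fell of 32 tested in WT after LPS. Mcmbp, which binds the Mcm ring, and Timeless, of the fork protection complex, rose by 2.45 and 1.41 on the log2 scale, while Rfc1 and Gmnn, geminin, which blocks Cdt1, fell by 1.35 and 3.15. In nucleotide supply 2 rose and 13 fell of 18 tested. Samhd1, which degrades deoxynucleotides, and Dck, which salvages them, rose by 3.26 and 2.32, and the pyrimidine synthesis genes Umps and Ctps fell by 2.12 and 2.44.

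Among G1/S regulators 8 rose and 21 fell of 32 tested. Ccnd2, a D-type cyclin, and Cdkn1a, the p21 inhibitor of cyclin-dependent kinases, rose by 4.50 and 2.61, while the kinase Cdk2 and the repressor E2f6 fell by 3.09 and 2.00. Checkpoint and repair genes outside the members counted 3 rose and 25 fell of 32 tested, with Hus1 and Rad9a of the checkpoint clamp rising by 0.88 and 0.38, and the mismatch repair gene Msh6 falling by 3.16. For chromatin replication 2 rose and 7 fell of 12 tested. Hat1 and Asf1a, which act on new histones, rose by 2.13 and 1.07, and Dnmt1 and Hells fell by 2.27 and 2.86. Among mitotic genes 1 rose and 20 fell of 22 tested. Tpx2, a spindle factor, rose by 2.20, and Bub1b and Kif23 fell by 3.34 and 3.84.

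The counts in the other genotypes are read against 30.7% of all tested genes lower in KO and 33.3% in dCIS. They differed most for chromatin replication, with 5 of 12 lower in KO and 9 in dCIS. Such a gap between counts is not a test of a difference between genotypes. KO and dCIS had 19 and 20 of 22 mitotic genes lower after LPS, and 22 and 23 of 32 origin and fork factors. The 7 fibroblast and endothelial markers moved with LPS. They summed to 2.93 to 5.57 CPM in untreated WT libraries and 48.5 to 62.6 CPM after LPS, 4 of the 4 tested rose, and Col1a1, Col1a2 and Col3a1 stayed under 1 CPM in every library. The part of such cells in the falls was not tested.

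In untreated KO against dCIS the same lists are read against 9.25% of all tested genes lower and 21.3% called. Of mitotic genes 14 of 22 were lower, with Birc5, Tpx2 and Prc1 at log2 fold changes of -1.67, -0.85 and -1.08. Origin and fork factors counted 10 of 32 lower (Gmnn -1.08, Gins4 -0.48, Chtf18 -0.92), and chromatin replication genes 7 of 12 (Nasp -0.69, Hat1 -0.58, Hmgb2 -0.91). Nucleotide supply had 6 lower and 2 higher of 18, among them Dut (-1.15) and Dtymk (-0.65). Checkpoint and repair genes had 6 of 32 lower (among them Rad54l -0.84 and Ung -1.19). G1/S regulators were mixed, with 8 lower and 3 higher of 32, and Cdkn2d, Ccne1 and Fbxo5 at -0.84, -1.05 and -1.17.

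In the other comparisons of genotypes these lists held few calls. Untreated KO against WT called Cdk4 (-0.36) and Rb1, the retinoblastoma protein gene (0.59), and Rb1 was also higher in KO than in WT after LPS (0.64). Among the genes called in KO against dCIS after LPS were Top2a (-1.28), Pole3 (-0.51), Ccna2 (-2.11), E2f7 (at a count of 0 in each KO LPS library), Skp2 (0.99), Ube2c (-1.73), Birc5 (-1.67) and Nusap1 (-1.31). All of these were lower in KO except Skp2.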

How the data were processed

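The authors deposited 1 table of whole-number counts per gene for 24 libraries. Libraries started from 200 ng of RNA selected with oligo-dT and were sequenced as pairs of 60-base reads, per the labels' protocols. STAR, edgeR and the mm39 build are named in the submitters' processing notes. The sources used here give no version, counting program, strand setting or annotation, so reads of overlapping genes on opposite strands, or of close copies, cannot be told apart. Of 56941 gene identifiers 51948 (91.2%) matched a symbol.

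Counts were tested with edgeR 4.0.16 in R 4.3.3: TMM scaling, a filter (minimum count 10, minimum total 15) that left 14757 genes, and 1 quasi-likelihood fit of 24 libraries with a mean per group. P-values are 2-sided and Benjamini-Hochberg adjusted over all tested genes, with calls at 0.05. The library number test (F test) added the number within genotype to that fit. Members were named by a rule: in each role the 2 smallest p in WT after LPS, members with another direction or missing a call, and members called between genotypes or for library number. Some genes of the lists are not reported here. The members, the lists and the library number test were chosen with earlier results of these data known.

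Same-numbered libraries deviated together (each correlation of deviations over genes above 0.1) between untreated and LPS libraries of WT (0.11 to 0.15) and of KO (0.16 to 0.30), and between untreated KO and dCIS (0.11 to 0.36). Between untreated and LPS libraries of dCIS the values were 0.04 to 0.34. In each genotype every untreated library correlated best with the LPS library of its own number. Libraries of a group all differed by more than sampling noise. The test code was tested on simulated data. Alternatives were RLE size factors, no filter or one of 1 CPM in 4 or more libraries, the library number as a block, a fit of the groups compared only, DESeq2 1.42.0, and fits without single or paired libraries. No intervals from counts are given, since PCR reads are not independent molecules.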

Additional observations from a re-analysis of the deposited data

Results flagged for a closer look

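Within each group of 4 libraries, a value was marked when its gap to the nearest other library was too large a share of the group's range by Dixon's test at the 95% level. Chance marks about 1 in 20 groups, and 26 of 264 tests were marked. All marked values but that of Orc6 were high, and 10 belonged to untreated KO library 1 and 7 to KO LPS library 1. The genes share these libraries, so the marks are not independent. Their cause was not tested.

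In untreated KO library 1 the high values, in CPM, were Mcm6 114, Mcm7 32.3, Pola1 17.7, Pole 18.4, Fen1 31.0, Lig1 37.3, Rrm2 25.0, Uhrf1 36.5, Clspn 15.3, E2f2 11.0. In KO LPS library 1 they were Cdc6 1.30, Mcm4 14.1, Mcm5 12.0, Lig1 15.2, Rrm1 21.0, Chaf1a 3.62 CPM, and the mean log2 CPM over the 43 members was 2.16 there. In untreated WT library 2 Mcm4 was high at 60.6 CPM, and in WT LPS library 2 Clspn and Exo1 were high at 0.699 and 0.466 CPM, each from few counts. Cdt1 was high in untreated dCIS library 1 (52.7 CPM) and in WT LPS library 1 (38.0 CPM), and Gins1 in KO LPS library 2 (5.12 CPM). Among dCIS LPS libraries Orc6 was low in library 3 (2.78 CPM), Prim1 high in library 3 (1.68 CPM) and Brca1 high in library 4 (2.29 CPM), the libraries with fewer genes detected.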

How the results depend on the processing

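The count of members called after LPS stayed within 1.5 times under each alternative run, with 36 to 40 members called in WT, 37 to 39 in KO and 38 to 40 in dCIS when 1 library was left out. Members called in untreated KO against dCIS ranged from 18 to 36 in those fits, while all genes called ranged from 1198 to 4488. Untreated KO against WT called 4 members, 0 to 6 without 1 library, 10 with no filter, 7 with DESeq2, 7 without dCIS LPS libraries 3 and 4, and 1 without both KO libraries numbered 2. All genes called there without 1 library ranged from 90 to 1926. KO against dCIS after LPS called 2, 0 to 4 without 1 library, 9 with no filter, 7 with DESeq2, and 0 without dCIS LPS libraries 3 and 4 or without both KO libraries numbered 2. Here all genes called without 1 library ranged from 122 to 1446. KO against WT after LPS called 0, 2 with the groups compared alone, and 0 to 1 without 1 library, where all genes called ranged from 68 to 1084. dCIS against WT called 1 untreated with no filter, and after LPS 3 with no filter, 1 with DESeq2 and 1 without dCIS LPS libraries 1 and 2. The library number called 15, 14 and 10 members in WT, KO and dCIS with no filter, 23 in WT and 0 in dCIS when the genotype was fitted alone, and 0 to 8, 0 to 8 and 3 to 15 without 1 library, the last fits added after seeing the data. All genes called by number without 1 library ranged from 13 to 112 in WT, 305 to 970 in KO and 1350 to 4407 in dCIS. Shares of all genes under the other alternatives are not given here, so those counts of members have no background beside them.

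With the library number as a replicate block over all groups, the calls were 11 in untreated KO against WT, 7 in KO against dCIS after LPS, 1 in dCIS against WT after LPS and 36 in untreated KO against dCIS. The pairing was not shown for the first 3 of these comparisons. A block within each genotype gave 40, 39 and 39 members after LPS in WT, KO and dCIS, and could not be fitted for comparisons between genotypes, since the number then lies within the genotype. No other count of members moved by over 1.5 times under the block.

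Signs near 0 turned, and the cause was not tested. Tyms in WT was 0.00 with RLE size factors, with the groups compared alone and with DESeq2, -0.13 with no filter, and between -0.15 and 0.25 without 1 library. Cdt1 in KO was -0.05 with RLE and with DESeq2, -0.14 with no filter, -0.07 with the groups alone, -0.02 without both KO libraries numbered 2, and between -0.13 and 0.15 without 1 library. In dCIS Mcm10 was -0.22 and Pcna -0.17 without dCIS LPS libraries 1 and 2, and Pcna -0.07 with no filter and between -0.06 and 0.15 without 1 library. Without untreated dCIS library 3 the median of all genes in the KO response to LPS was -0.12, a shift of -0.14. After LPS counts of single digits limit Exo1, Brca2, Clspn, Orc1, Cdca7 and E2f2. Some LPS libraries also held such counts for Cdc6, Cdc45, Gins3, Rfc4, Prim1, Pold1, Uhrf1 and Brca1. For Prim1 the KO LPS libraries held 5 to 9 counts.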
